A study of Mus musculus with 24 samples.

Results

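The genes described here encode the proteins of the cytosolic ribosome. They were taken by symbol from the gene count table: every symbol that starts with Rpl or Rps and continues with a subunit number and an optional paralog suffix, plus Rplp0, Rplp1, Rplp2 and Rpsa, leaving out the -ps pseudogene symbols. Of 90 matching symbols, 88 had at least 20 counts summed over the 24 libraries, out of 52997 gene symbols in the table. Rpl10l with 4 counts and Rps12l1 with 0 fell under that limit. By symbol, 53 of the 88 belong to the large subunit and 35 to the small subunit. The annotation lists 83 as protein coding and 5 as pseudogenes, namely Rpl32l, Rpl6l, Rps3a2, Rps3a3 and Rps4l.

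The libraries came from hindlimb skeletal muscle of C57BL/6 mice aged 8 weeks, without injury or 1 day after they received cardiotoxin, which destroys muscle fibers and is found in snake venom. Cells were sorted into CD45+ hematopoietic cells, CD31+ endothelial cells, mesenchymal stromal cells (MSC, CD45- CD31- Sca1+ PDGFRa+) and muscle satellite cells, the stem cells of muscle (MuSC, CD45- CD31- Sca1- Vcam1+). Each of the 8 groups had 3 libraries, described by the submitters as biological replicates, and each library was made from 1000 cells sorted 2 times. The labels do not say which animal each library came from or whether animals were pooled.

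A ribosome holds a small subunit that reads the mRNA and a large subunit that joins amino acids. Most of its proteins are present in a single copy per ribosome, and cells tend to make them in matched amounts. Their mRNAs begin with a run of pyrimidines, the 5′ terminal oligopyrimidine tract, through which the kinase mTOR and the RNA-binding protein Larp1 control their translation. Some of these genes have a paralog with its own expression pattern, such as Rpl3l in striated muscle and Rpl39l in testis.

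Start regions were available for 64 of the 88 genes in the RefSeq promoter table (GRCm38.p6). The strips below run from 60 bases before to 20 bases after the annotated start, on the transcribed strand. They show 2 ordinary members, Rps18 and Rpl35, and 2 pairs of a canonical gene and its paralog whose levels separated after injury. Capitals mark the word CTTTC, the word CTTCC or the word CTCTT from 10 bases before the start onward, and the word CCGGAAG or its reverse complement CTTCCGG anywhere in the strip.
Rps18, chr17:33955646-33955725, minus strand: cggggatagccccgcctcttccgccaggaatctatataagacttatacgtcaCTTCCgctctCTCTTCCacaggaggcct
Rpl35, chr2:39005112-39005191, minus strand: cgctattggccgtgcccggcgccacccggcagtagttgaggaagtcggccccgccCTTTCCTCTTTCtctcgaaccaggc
Rps27, chr3:90213629-90213708, minus strand: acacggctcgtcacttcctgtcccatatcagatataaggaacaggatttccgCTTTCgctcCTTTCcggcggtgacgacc
Rps27l, chr9:66946026-66946105, plus strand: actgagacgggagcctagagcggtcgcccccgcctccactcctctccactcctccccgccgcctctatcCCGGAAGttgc
Rpl36a, chrX:134585594-134585673, plus strand: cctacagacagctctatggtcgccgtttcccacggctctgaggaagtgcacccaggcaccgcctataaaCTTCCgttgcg
Rpl36al, chr12:69184048-69184127, minus strand: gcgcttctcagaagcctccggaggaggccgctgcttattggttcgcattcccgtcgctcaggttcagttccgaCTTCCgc

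Rps18 and Rpl35 carry the pyrimidine words around the annotated start. Rps27 does as well, and in Rps27l the marked word downstream of the start in the strip is CCGGAAG. Rps27l has another annotated start, not shown, whose window does hold a pyrimidine word, and a gene was counted as matching where any of its annotated starts matched. Of the 64 genes, 36 (56.25%) held at least 1 of the 3 pyrimidine words on the transcribed strand between 10 bases before and 30 bases after the start, against 18.2% of all 27025 genes in the table. The word CCGGAAG, the core bound by ETS family factors, was found on either strand of the window from 250 bases before to 50 after the start in 26 genes (40.6%), against 9.93% of all genes. The E-box CACGTG, the word bound by Myc, was found on the same window in 6 genes (9.38%), against 8.09%. The word TATAAA between 40 and 15 bases before the start on the transcribed strand was found in 1 gene, against 2.41% of all genes. CTTCC is contained in CTTCCGG, so the pyrimidine and CCGGAAG matches can overlap. The matches describe letters in these windows only.

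Libraries held 2301202 to 7649841 counts. Levels are in CPM, counts scaled to a common library size. Each population had its own markers high: the 14 leukocyte genes summed to 38344 to 44874 CPM in CD45+ libraries, the 14 endothelial genes to 15948 to 20831 CPM in CD31+ libraries, the 14 satellite cell genes to 9291 to 12109 CPM in MuSC libraries, and the 14 stromal genes to 41358 to 219760 CPM in MSC libraries. In injured CD31+ replicate 1 the leukocyte genes summed to 477 CPM, against 74.7 and 67.3 CPM in the other injured CD31+ libraries. CPM here and below are scaled by trimmed mean of M-values (TMM) normalization, and changes were tested with edgeR's quasi-likelihood test at a Benjamini-Hochberg adjusted p of 0.05 over the 16263 genes tested. Of the 88 genes, 86 were tested, and Rps3a2 and Rpl32l had too few counts. In sorted bulk samples, fewer cells of a type and less RNA per cell cannot be told apart.

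The ribosomal protein genes took the largest share of counts in satellite cells, and injury raised that share in endothelial and stromal cells but lowered it in hematopoietic cells. In uninjured CD31+ libraries the share of all counts was 2.03%, 2.10% and 1.84%, and in injured ones 3.96%, 3.55% and 3.29%. In MSC it was 2.38%, 2.38% and 2.32% without injury and 5.43%, 5.14% and 5.54% with it. No injured library of these 2 populations overlapped an uninjured one, and the mean share was 1.81 times as high in CD31+ and 2.27 times as high in MSC after injury. CD45+ libraries went from 3.45%, 3.90% and 4.10% to 2.63%, 2.73% and 3.08%, again without overlap, a ratio of 0.737. With library totals alone as the scaling, the members had a median log2 change of -0.42 in CD45+, close to -0.35 for all genes. The fall in share is therefore not particular to these genes. MuSC libraries had 6.77%, 6.83% and 7.82% without injury and 7.08%, 7.60% and 7.47% with it, and these ranges overlap. With 3 libraries against 3, an exact permutation test in a single population cannot go below p = 0.1. In the same MSC libraries the 14 stromal genes summed to 165164 to 219760 CPM without injury and 41358 to 59267 CPM with it, and the part of that fall in the change of share was not tested.

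**Figure D1:**
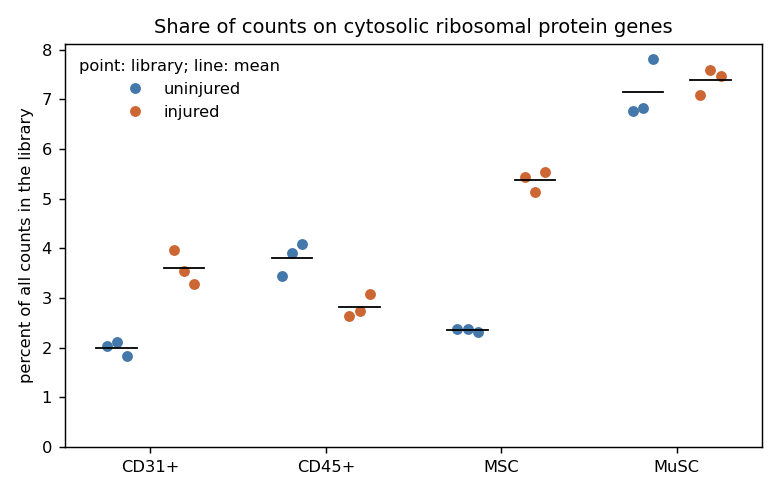
Percent of all counts in a library that fell on the 88 ribosomal protein genes (vertical axis) in the 4 sorted populations (horizontal axis). Points are libraries, blue uninjured and orange injured, and lines are means of 3: injured CD31+ and MSC libraries lie above all uninjured ones, injured CD45+ libraries lie below, and MuSC libraries overlap at 6.77% to 7.82%.

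Without injury, satellite cells had the highest level of most members and endothelial cells the lowest. The 4 uninjured populations differed in 84 of 86 members, against 78.7% of all genes tested. Rpl6l and Rps27l were the 2 members not called, with adjusted p-values of 0.237 and 0.131. The mean was highest in MuSC for 78 members and lowest in CD31+ for 80. Against the mean of the other 3 populations, 79 members were higher in MuSC (24.9% of all genes were) with a median log2 difference of 1.00, and 1, Rps4l, was lower (24.1%). In CD31+ 82 members were lower (19.3% of all genes) with a median of -1.01, and Rps4l was the 1 member higher (25.3%). In CD45+ 54 members were higher (29.4%) with a median of 0.30, and Rps4l was the 1 member lower (25.8%). In MSC 45 members were lower (18.0%) with a median of -0.26, and 2, Rpl39l and Rps4l, were higher (26.3%). Rpl39l passed the filter on low counts only through MSC libraries. The median over all genes in these 4 comparisons lay between -0.06 and 0.03. Between single populations, 64 members were lower in CD45+ than in MuSC (27.2% of all genes) and 4 were higher (29.0%), among them Rpl36al, Rps29 and Rps4l.

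Rps29 departed from this order, and Rpl10a and Rpsa followed it with wide gaps. Rps29, a small zinc-binding protein of the small subunit head, read 265, 307 and 222 CPM in uninjured CD45+ and 152, 146 and 179 CPM in uninjured MuSC, so that the highest level was in hematopoietic cells. Its log2 difference of CD45+ from the other 3 was 0.95 (SE 0.11, edgeR adjusted p = 1.05e-07). Rpl10a, a protein of the mobile L1 stalk where spent tRNA leaves, read 324, 297 and 360 CPM in MuSC against 60.8, 59.6 and 58.4 CPM in CD31+. It was higher in MuSC than in the other 3 by 1.61 log2 (SE 0.08, edgeR adjusted p = 9.50e-14). Rpsa, a small subunit protein also known as the laminin receptor, showed the widest gap in endothelial cells, 1.95 log2 below the other 3 populations with 203, 183 and 201 CPM.

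Per kilobase of exon, Rplp1 had the highest mean level over the 24 libraries at 2032 CPM per kb, followed by Rplp0 at 1238 CPM per kb. Rplp1 and Rplp0 belong to the stalk that recruits elongation factors, in which Rplp1 and Rplp2 sit as dimers on Rplp0. The lowest members tested were Rpl3l at 0.991, Rpl6l at 1.02 and Rps3a3 at 1.75 CPM per kb. The paralogs Rpl39l (3.27 CPM per kb), Rpl36al (39.6), Rpl22l1 (46.9), Rpl7l1 (51.8) and Rps4l (58.0) also stood in the lowest part of the list. Ordinary members stood there too, among them Rpl24 (12.4), Rpl13a (36.2) and Rpl23a (48.7). The paralog Rps27l stood higher, at 193 CPM per kb. For Rpl9, Rps13 and Rpl22l1 the exon length used was 1 block that covered the whole gene span. The order per kb thus depends on the annotated lengths as well as on the counts.

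Endothelial and stromal cells raised nearly the whole set 1 day after injury. In CD31+ cells 80 of 86 members rose, against 14.1% of all genes tested, and 1, Rpl3l, fell, against 9.3%. The median log2 fold change of the members was 0.91, and that of all genes was -0.04. Not called were Rps27, Rpl39l, Rps3a3, Rpl6l and Rps21, the last named after its values were seen. In MSC 80 of 86 rose, against 18.3% of all genes, and 0 fell by edgeR, against 23.6%, with 0 also at an unadjusted p under 0.05 and 0 by DESeq2 and limma voom. The median was 0.94 and that of all genes -0.22. Not called in MSC were Rps27, Rps4l, Rpl3l, Rps3a3, Rpl6l and Rpl39l. In CD31+, 49 large subunit and 31 small subunit members rose, and the numbers in MSC were also 49 and 31. Of 14 leukocyte genes, 7 rose in CD31+ after injury, with a median log2 change of 3.58 over the 14. They summed to 63.1 to 83.9 CPM in uninjured CD31+ libraries. Among injured CD31+ libraries only replicate 1 lay above that range, while the others lay within it. Without injured CD31+ replicate 1, the library with the higher leukocyte sum, 74 members rose in CD31+.

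Satellite cells, which started from the highest level, raised fewer members and by less. In MuSC 45 of 86 rose, against 21.4% of all genes, and 0 fell by edgeR, against 17.5%. At an unadjusted p under 0.05 edgeR had 2 lower, DESeq2 called 2 lower and limma voom 3. The median was 0.33 and that of all genes -0.04. With library totals alone as the scaling, 22 rose and 8 fell, the members' median was 0.12, and the median over all genes moved from -0.04 to -0.24. The share of all genes called under that scaling is not given here. The number that rose was 27 to 29, with 3 that fell, when any of these libraries of other populations was left out: CD31+ uninjured 1 or 2, CD45+ uninjured 3, CD45+ injured 1, 2 or 3, MSC uninjured 1, 2 or 3, or MSC injured 1. The members' median in MuSC was then 0.18, and the median over all genes lay between -0.19 and -0.18.

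In hematopoietic cells most members were not called. In CD45+ 22 of 86 members fell, against 18.5% of all genes, and 4 rose, against 16.0%. The median was -0.17 and that of all genes -0.12, and the share that fell was not far from the share over all genes, so it is not a result about these genes. The members' median was -0.08 without CD45+ injured replicate 1, -0.11 without CD45+ injured replicate 2 or CD45+ uninjured replicate 3, -0.09 with no filter and -0.42 with library totals alone. The 4 that rose were Rps27l, Rpl36al, Rpl7l1 and Rpl6l, and 0 of the 77 members outside the listed paralogs and annotated pseudogenes rose by edgeR, DESeq2 or limma voom, with 1 higher at an unadjusted p under 0.05 in each. Rpl6l passed the filter on low counts only through the injured CD45+ libraries, so its rise is not independent support. Among those that fell were Rps27, Rps4x and Rplp1. The number that fell was 12 without CD45+ injured replicate 1 or 2 and 14 without CD45+ uninjured replicate 2, and without CD45+ injured replicate 1 the number that rose was 7. The number that fell was 10 with no filter on low counts and 57 with library totals alone, where the median over all genes moved from -0.12 to -0.35. The shares of all genes called under these settings are not given here.

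**Figure D2:**
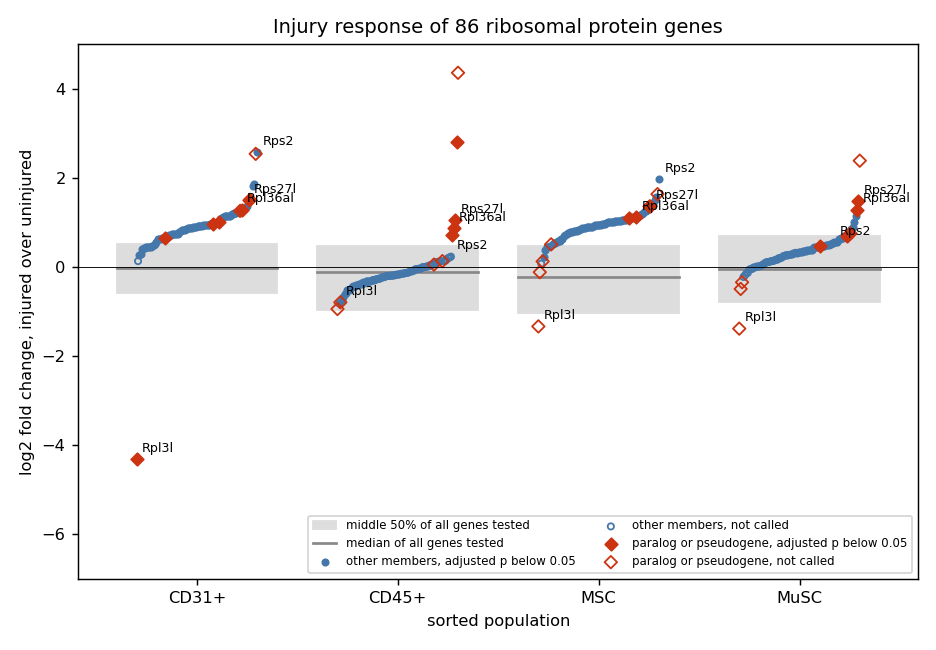
Log2 fold change of injured over uninjured (vertical axis) for 86 ribosomal protein genes in each population (horizontal axis), ordered by size within a population. Blue circles are ordinary members and red diamonds are listed paralogs and annotated pseudogenes, filled where the adjusted p was below 0.05. Grey bands hold the middle 50% of all genes tested. The ordinary members lie above 0 in CD31+ and MSC, and Rps27l and Rpl36al are at the upper end in CD45+ and MuSC. Fold changes of members with few counts, such as Rpl39l and Rpl3l, depend on the fit.

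The response to injury differed between the 4 populations in 80 of 86 members, against 35.9% of all genes (edgeR's F test that the 4 log2 fold changes are equal). Compared with the mean response of the other 3 populations, the response of CD45+ was lower in 78 members (16.1% of all genes were lower) and higher in 0 (9.59%), or 1 at an unadjusted p under 0.05. The response of MSC was higher in 69 members (6.39%) and that of CD31+ in 49 (5.64%). The response of MuSC was lower in 19 members (4.17%) and higher in 1 (9.32%). The 6 members with no difference called were Rpl36al, Rpl39l, Rpl3l, Rpl6l, Rps27l and Rps3a3, all of them paralogs or annotated pseudogenes. Of these, Rpl39l, Rpl3l, Rpl6l and Rps3a3 had only 385, 175, 101 and 170 counts over the 24 libraries, which limits the test. A difference was called for the paralogs Rpl7l1, Rpl22l1 and Rps4l.

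**Figure D3:**
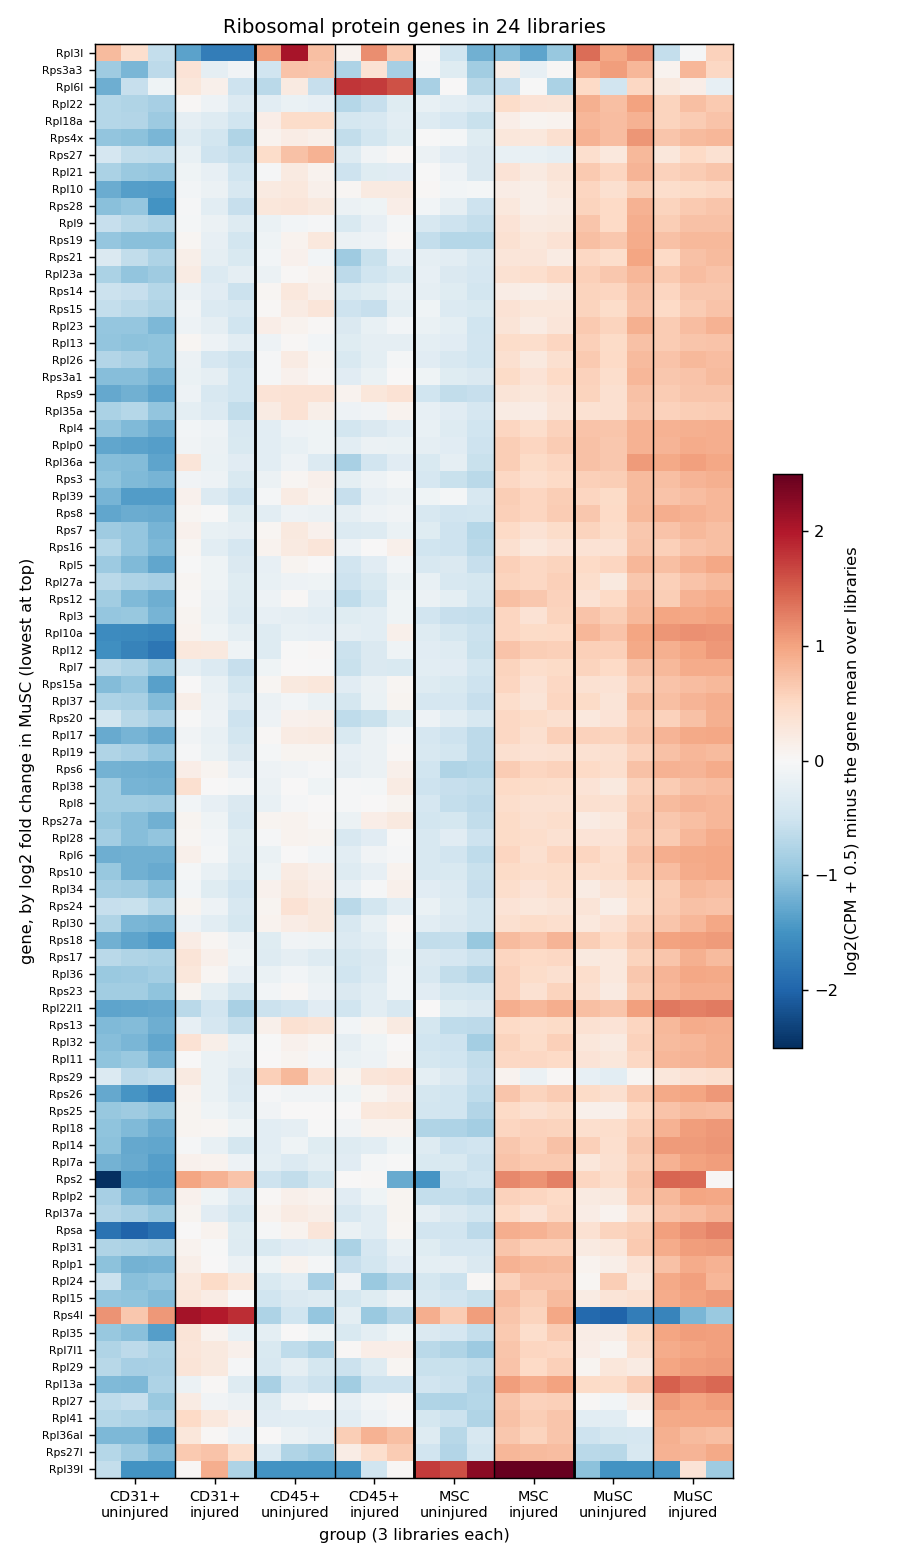
Level of 84 of the 86 ribosomal protein genes tested (rows, ordered by fold change in MuSC) in the 24 libraries (columns, in 8 groups of 3), as log2(CPM + 0.5) minus the mean of the gene over libraries, blue low and red high, with colors limited at 2.5. Most rows are red in MuSC, blue in uninjured CD31+, and turn from blue to red in MSC after injury, and rows such as Rps4l, Rpl39l, Rps27l, Rpl3l and Rps2 break that pattern.

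Rpsa (chr9:120127689-120132369) had the smallest p for a difference in response, 3.03e-09 after adjustment with edgeR. It read 203, 183 and 201 CPM in uninjured and 740, 787 and 600 CPM in injured CD31+ libraries. In MSC it went from 531, 525 and 470 to 1386, 1354 and 1283 CPM, and in MuSC from 958, 1077 and 1136 to 1501, 1637 and 1729 CPM. These 3 populations did not overlap between conditions. In CD45+ it read 719, 786 and 904 CPM without injury and 656, 617 and 758 CPM with it, which overlap. The log2 fold changes were 1.86 (SE 0.11, edgeR adjusted p = 2.63e-11) in CD31+, 1.40 (SE 0.11) in MSC, 0.62 (SE 0.11) in MuSC and -0.25 (SE 0.11, adjusted p = 0.0872) in CD45+.

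The stalk proteins rose in CD31+ and MSC. Rplp1 rose by 1.14 log2 (SE 0.10) in CD31+, 1.10 (SE 0.10) in MSC and 0.64 (SE 0.10) in MuSC, and fell by 0.41 (SE 0.10) in CD45+, a call that ended with no filter on low counts. Rplp2 rose by 0.96, 1.14 and 0.55 log2 in CD31+, MSC and MuSC, and read -0.17 in CD45+ (edgeR adjusted p = 0.316). Rplp0, to which both bind, rose in CD31+ from 751, 734 and 716 to 1749, 1676 and 1412 CPM and in MSC from 1577, 1519 and 1298 to 2828, 2682 and 2890 CPM. In MuSC it read 3088, 2962 and 3367 CPM without injury and 3343, 3513 and 3457 CPM with it, a log2 change of 0.13 (SE 0.09, edgeR adjusted p = 0.254). In CD45+ Rplp0 changed by -0.01 log2 (SE 0.09, edgeR adjusted p = 0.989).

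Rps18, a protein of the small subunit, was also among the 5 members with the smallest p. It rose by 1.36 log2 (SE 0.11) in CD31+, 1.50 (SE 0.11) in MSC and 0.43 (SE 0.11) in MuSC, and its change in CD45+ was -0.05 (edgeR adjusted p = 0.749). The MuSC call ended with library totals alone. Rpl13a, a large subunit protein with a role in interferon-gated translation control, rose most among ordinary large subunit members in MSC, from 45.9, 44.4 and 38.4 to 134, 121 and 130 CPM, a log2 change of 1.57 (SE 0.14).

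Rps2 (chr17:24718116-24721929), a small subunit protein at the mRNA entry channel, had the largest called rise of any member in CD31+ and MSC, but with a single low library in each population. It read 107, 248 and 242 CPM in uninjured and 1291, 1186 and 1068 CPM in injured CD31+ libraries. In MSC it read 234, 449 and 459 and then 1494, 1413 and 1561 CPM. The injured libraries of these 2 populations were all higher than the uninjured ones, and uninjured replicate 1 was the lowest of both. In CD45+ it read 452, 425 and 477 and then 654, 661 and 271 CPM, and in MuSC 939, 880 and 1050 and then 1778, 1740 and 666 CPM. Injured replicate 3 of these 2 populations lay below all uninjured libraries while the other injured libraries lay above them. The log2 fold changes were 2.57 (SE 0.40, edgeR adjusted p = 0.00011) in CD31+, 1.97 (SE 0.39, adjusted p = 0.000538) in MSC, 0.54 (SE 0.38, adjusted p = 0.278) in MuSC and 0.23 (SE 0.38, adjusted p = 0.687) in CD45+. Without the low library they were 2.28, 1.87, 0.89 and 0.60, with adjusted p-values of 0.000883, 0.00248, 0.0621 and 0.245. Rpsa showed no such spread in the same libraries.

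**Figure D4:**
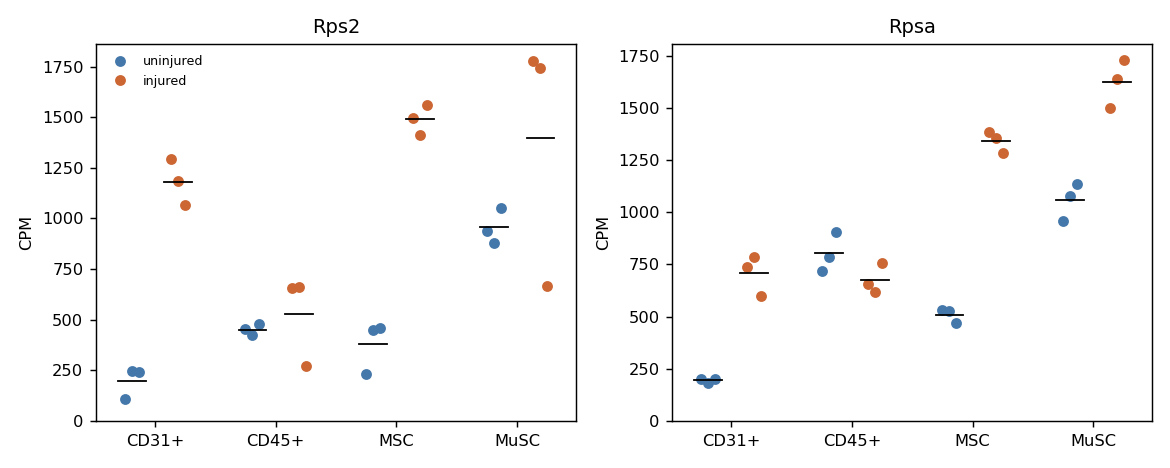
CPM of Rps2 (left) and Rpsa (right) by population, points being libraries (blue uninjured, orange injured) and lines means of 3. For Rps2 a single library stands low in uninjured CD31+ (107 CPM), injured CD45+ (271), uninjured MSC (234) and injured MuSC (666), and for Rpsa the libraries of a group lie close together.

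The paralogs were set against their canonical partners as counts of the paralog per 100 counts of the partner, a ratio within a library that does not depend on scaling. For the log2 ratio 0.5 was added to both counts. Where counts are few, as for Rpl3l and Rpl39l, the log2 ratio therefore also depends on library depth. The injured minus uninjured difference in the log2 ratio was averaged over the 4 populations and tested with a two-sided exact permutation test of the injury labels within populations (160000 arrangements), adjusted over the 7 pairs. The smallest p the test can give is 1.25e-05. Reads of 25 bases can match both genes of a pair, and how such reads were counted is not given in the sources used here.

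Rps27l (chr9:66946086-66949516) rose in all 4 populations while its partner did not. Rps27 is a zinc-binding protein of the small subunit, and Rps27l is a near copy that the tumor suppressor p53 is known to induce. Rps27l went from 85.4, 75.7 and 64.8 to 220, 231 and 189 CPM in CD31+ and from 110, 82.4 and 77.6 to 158, 186 and 217 CPM in CD45+. In MSC it went from 99.7, 84.2 and 101 to 248, 243 and 240 CPM, and in MuSC from 87.5, 86.1 and 105 to 254, 253 and 270 CPM. No injured library overlapped an uninjured one of its population, and the 4 uninjured groups started from similar levels, with means of 75.3 to 95.0 CPM. In CD31+, CD45+, MSC and MuSC in that order the log2 fold changes were 1.50, 1.06, 1.36 and 1.48 (SE 0.14 for each), with edgeR adjusted p-values of 2.52e-08, 3.46e-06, 3.72e-08 and 1.16e-08.

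Rps27 (chr3:90212522-90213651) fell in CD45+ from 535, 644 and 715 to 311, 365 and 398 CPM, a log2 change of -0.82 (SE 0.14, edgeR adjusted p = 6.03e-05). It was not called in the other populations, where its log2 changes were 0.13 in CD31+, 0.07 in MSC and -0.14 in MuSC. Per 100 Rps27 counts, Rps27l had 28.3 ± 2.11 (SD, n = 3) in uninjured and 74.1 ± 10.1 in injured CD31+, and 14.7 ± 5.16 and 52.2 ± 2.08 in CD45+. MuSC had 16.8 ± 1.55 without and 51.1 ± 4.22 with injury, and MSC had 29.5 ± 3.70 and 71.7 ± 0.655. The mean change of the log2 ratio was 1.54 (exact permutation p = 1.25e-05, adjusted p = 4.38e-05), with higher injured values and no overlap in 4 of 4 populations.

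Of 25 known p53 target genes listed for comparison, 10 rose and 4 fell in CD31+, where 14.1% and 9.3% of all genes did. The counts were 11 and 3 in CD45+ (16.0% and 18.5% of all genes), 7 and 4 in MuSC (21.4% and 17.5%), and 4 and 3 in MSC (18.3% and 23.6%). Bax, which opens the mitochondrial membrane in cell death, rose by 1.32, 1.21, 1.21 and 1.11 log2, and Aen, a nuclease, by 2.28, 0.91, 1.83 and 1.63, in CD31+, CD45+, MSC and MuSC in that order. Sesn1, another target, fell in all 4, by 1.75, 1.61, 2.17 and 2.02 log2 in the same order. The part of p53 in the rise of Rps27l was not tested.

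Rpl36al (chr12:69182731-69184083) also rose in all 4 populations. It went from 22.1, 22.0 and 18.6 to 59.1, 49.3 and 44.4 CPM in CD31+ and from 48.9, 43.7 and 41.5 to 74.5, 88.7 and 81.5 CPM in CD45+. In MSC it went from 38.5, 29.6 and 36.7 to 77.2, 71.1 and 78.5 CPM and in MuSC from 33.5, 35.6 and 36.1 to 89.7, 83.8 and 82.2 CPM. Its log2 fold changes were 1.28, 0.87, 1.11 and 1.28 in the same order, with edgeR adjusted p-values of 4.07e-07, 3.51e-05, 6.11e-07 and 8.54e-08. The ratio to Rpl36a, a large subunit protein that contacts the tRNA exit site, changed mainly in the populations where the partner was not called. It went from 33.5 ± 3.31 (SD, n = 3) to 74.5 ± 10.6 per 100 in CD45+ and from 12.6 ± 1.65 to 27.2 ± 1.76 in MuSC. In CD31+ and MSC, where Rpl36a rose by 1.13 and 0.93 log2, the means were 29.6 and 33.2, and 29.3 and 32.8. The mean change of the log2 ratio was 0.65 (exact permutation p = 0.000188, adjusted p = 0.000328).

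Rpl7l1 (chr17:46773907-46782672), a relative of Rpl7 that resembles a ribosome assembly factor of yeast, was the third gene to rise everywhere. It went from 98.0, 105 and 94.9 to 205, 195 and 181 CPM in CD31+, from 127, 106 and 96.5 to 169, 187 and 185 CPM in CD45+, from 104, 98.6 and 88.2 to 268, 240 and 238 CPM in MSC, and from 186, 174 and 217 to 317, 329 and 337 CPM in MuSC. The log2 fold changes were 0.96, 0.71, 1.36 and 0.77 in the same order, with SE 0.11 for each. Counts per 100 of Rpl7 rose without overlap in 4 of 4 populations, with means going from 22.6 to 32.9 in CD31+, from 16.5 to 23.1 in MuSC, from 15.9 to 23.1 in MSC, and from 14.8 to 31.8 in CD45+. The mean change of the log2 ratio was 0.67 (exact permutation p = 1.25e-05, adjusted p = 4.38e-05).

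Rpl22l1 (chr3:28805436-28807424) is the paralog of Rpl22, an RNA-binding large subunit protein known for a role in T cell development. It rose by 1.10 log2 (SE 0.12) in MSC, from 79.4, 63.8 and 60.6 to 148, 141 and 147 CPM, and by 0.66 (SE 0.13) in CD31+, and its change in CD45+ was 0.05 (edgeR adjusted p = 0.809). Per 100 Rpl22 counts it went from 29.4 ± 1.64 (SD, n = 3) to 47.6 ± 3.92 in MuSC and from 31.5 ± 3.28 to 43.6 ± 1.88 in MSC, without overlap. In CD31+ it was 20.9 ± 1.19 and 21.5 ± 2.73, which overlap. The mean change of the log2 ratio was 0.39 (exact permutation p = 0.000287, adjusted p = 0.000402).

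**Figure D5:**
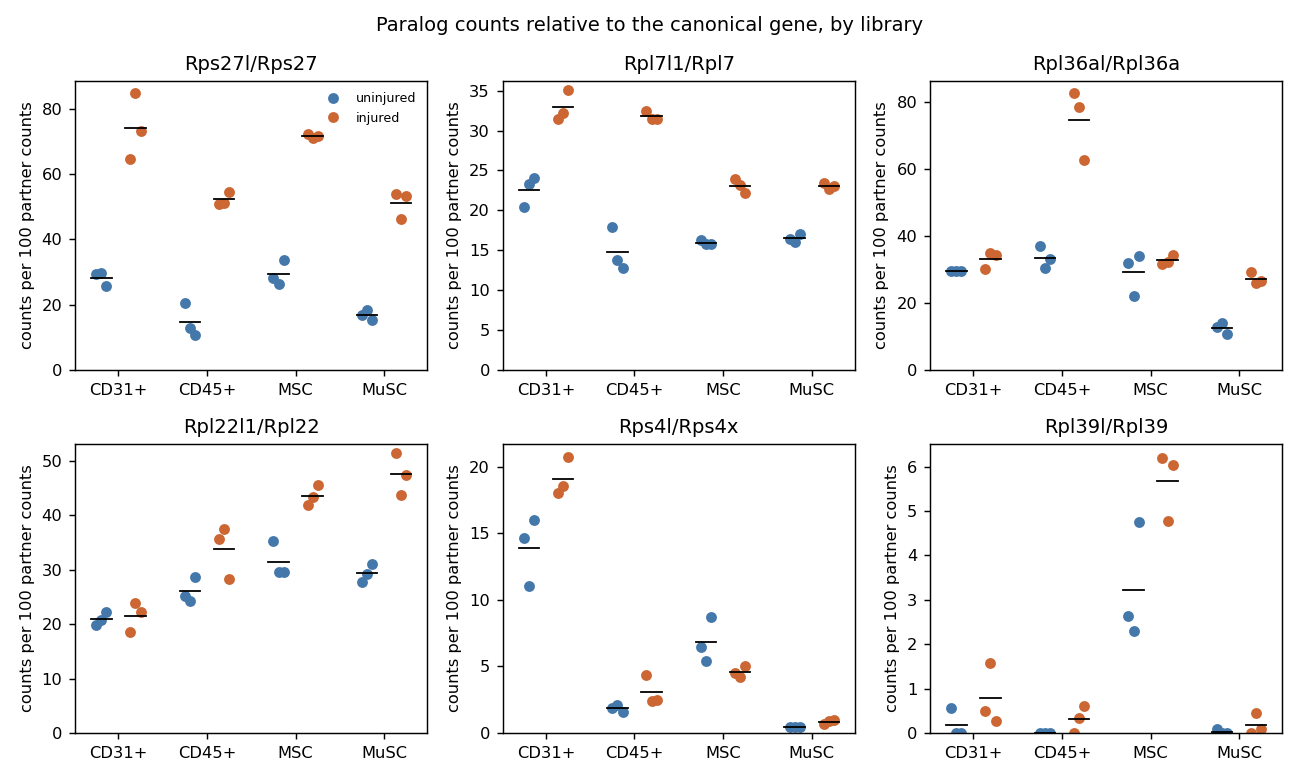
Counts of 6 paralogs per 100 counts of the canonical gene (vertical axes) by population, points being libraries (blue uninjured, orange injured) and lines means of 3. Rps27l/Rps27 and Rpl7l1/Rpl7 are higher in every injured library than in the uninjured ones of the population, Rpl36al/Rpl36a mainly in CD45+ and MuSC, Rps4l/Rps4x is high in CD31+, and Rpl39l/Rpl39 is high in MSC.

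Rps4l (chr6:148354656-148355598) is annotated as a transcribed processed pseudogene of the Rps4x family, and its pattern across populations was the opposite of the rest. Uninjured libraries read 84.2, 61.9 and 81.6 CPM in CD31+ and 72.2, 59.6 and 79.5 CPM in MSC, against 22.3, 26.9 and 19.5 CPM in CD45+ and 9.68, 9.15 and 11.2 CPM in MuSC. Per 100 Rps4x counts this was 13.9 ± 2.54 (SD, n = 3) in CD31+ and 0.467 ± 0.00681 in MuSC. After injury it rose to 163, 153 and 140 CPM in CD31+ (log2 change 1.00, SE 0.19, edgeR adjusted p = 0.000275), and in MSC it read 62.3, 56.7 and 75.5 CPM (log2 change -0.12, adjusted p = 0.644). In MuSC it read 11.9, 17.0 and 19.9 CPM, a log2 change of 0.69 with edgeR adjusted p = 0.0158. That MuSC call ended with library totals alone, with limma voom, and without MuSC injured 3, MuSC uninjured 1 or 2, CD31+ uninjured 1 or 2, CD45+ uninjured 3, CD45+ injured 3, MSC injured 1 or MSC uninjured 1, 2 or 3.

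Tmtc1, which overlaps Rps4l on the other strand, read 65.5, 35.6 and 74.6 CPM in uninjured CD31+ and 14.6, 19.0 and 29.0 CPM in injured CD31+. It was thus lower in injured CD31+, where Rps4l was higher. Among uninjured CD31+ libraries, replicate 2 was the lowest in both genes. Without injury both genes were higher in CD31+ and MSC, where the Tmtc1 mean was 58.5 and 15.3 CPM. That mean was below 1 CPM in uninjured CD45+ and MuSC. The part of Tmtc1 reads in the Rps4l counts was not tested. The log2 ratio to Rps4x was higher after injury in CD31+, CD45+ and MuSC and lower by 0.56 in MSC (values injured minus uninjured of 0.47, 0.70, 0.80 and -0.56). The mean was 0.35 (exact permutation p = 0.0401, adjusted p = 0.0401). That call ended without CD31+ uninjured 2, CD31+ injured 3, CD45+ uninjured 1 or 3, CD45+ injured 1, MSC uninjured 1 or 2, MSC injured 3, MuSC uninjured 1 or 3, or MuSC injured 2 or 3.

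Rpl39l (chr16:10170226-10174911) was found mainly in stromal cells. Its counts in uninjured MSC were 25, 17 and 28, and in injured MSC 117, 72 and 88, or 4.19, 3.81 and 6.22 and then 16.4, 11.9 and 15.8 CPM. In the other 9 uninjured libraries it had 2 counts in a CD31+ library, 1 in a MuSC library and 0 in all CD45+ libraries. It was higher in uninjured MSC than in the other 3 populations (edgeR adjusted p = 2.95e-06). The gene passed the filter on low counts only through MSC libraries, so that test is not independent support. Its log2 change with injury in MSC was 1.63 (SE 0.66, edgeR adjusted p = 0.0522). Summed over libraries, 2 counts in uninjured and 19 in injured CD31+ gave a ratio of 6.11 per total count, with an exact 95% interval from 1.47 to 54.1 that covers counting error only. Relative to Rpl39, a small protein lining the exit tunnel, it was 3.22 ± 1.33 (SD, n = 3) per 100 in uninjured and 5.67 ± 0.780 in injured MSC. The mean change of the log2 ratio over populations was 1.18 (exact permutation p = 0.0131, adjusted p = 0.0152). With so few counts outside MSC this size depends on the pseudocount of 0.5: it was 2.12 with 0.1 and 0.80 with 1.

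Rpl3l (chr17:24727820-24736143), which replaces Rpl3 in mature striated muscle, was at the edge of detection with 175 counts in all. Its counts were 11, 6 and 2 in uninjured and 1, 0 and 0 in injured CD31+ libraries, where it was the 1 member that fell (edgeR adjusted p = 0.00199). Summed, the injured CD31+ libraries had 0.0338 times the level per total count of the uninjured ones, with an exact 95% interval from 0.000814 to 0.213 that covers counting error only. In MuSC the counts were 20, 8 and 16 and then 4, 7 and 15, in MSC 7, 3 and 1 and then 2, 1 and 2, and in CD45+ 12, 22 and 8 and then 5, 13 and 9. The mean change of the log2 ratio to Rpl3 was -2.27 (exact permutation p = 3.75e-05, adjusted p = 8.75e-05), with no overlap and lower injured values in 3 of 4 populations. Over all alternatives it was -2.69 to -2.06, and in CD31+ alone the change was -4.50. Rpl3 itself rose by 0.89 log2 in CD31+, 1.03 in MSC and 0.26 in MuSC, which also lowers the ratio. Rpl3l was not called in MSC, CD45+ or MuSC (edgeR adjusted p = 0.213, 0.358 and 0.0897). Of 18 muscle fiber genes listed as markers, 16 were tested. By edgeR 0 of them rose (0 also at an unadjusted p under 0.05, and by DESeq2 and limma voom). In MSC 16 fell, in CD45+ 13, in MuSC 10 and in CD31+ 7, against 23.6%, 18.5%, 17.5% and 9.3% of all genes. The shares of all genes that rose were 18.3%, 16.0%, 21.4% and 14.1% in that order. Their summed level was 146 to 215 CPM in uninjured and 55.1 to 109 CPM in injured CD31+, 111 to 177 and 28.6 to 51.6 CPM in CD45+, 254 to 547 and 6.57 to 20.2 CPM in MSC, and 764 to 841 and 293 to 384 CPM in MuSC. The part of muscle fiber RNA in the Rpl3l counts was not tested.

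The annotated pseudogenes Rpl6l and Rps3a3 had few counts. Rpl6l (chr10:111125851-111126721) had 1, 3 and 1 counts in uninjured and 14, 14 and 13 in injured CD45+ libraries, a log2 change of 2.81 (SE 0.78, edgeR adjusted p = 0.00667), and that call ended with no filter on low counts, at 0.0580. In the other populations its injured libraries had 1 to 6 counts each. Rpl6l passed that filter only through the injured CD45+ libraries, the group where it was high. Rps3a3 (chr13:108670603-108671397), inside Pde4d on the same strand, had 1 to 16 counts per library and was not called after injury in any population. A processed copy shares sequence with its parent gene, so these counts are uncertain.

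Genes that work with the ribosome moved partly with its proteins. Fau, whose product includes a ribosomal protein of the small subunit, fell by 0.38 log2 in CD45+ and rose by 0.46 in MSC and 0.38 in MuSC. Rack1, a scaffold on the small subunit, rose by 1.25 log2 in CD31+, 1.58 in MSC and 0.76 in MuSC, and read 0.02 in CD45+. Of 44 ribosome production genes tested, covering RNA polymerase I, processing and assembly factors, 42 rose in MSC, 41 in MuSC, 40 in CD31+ and 27 in CD45+, and 0 fell in any population by edgeR, at an unadjusted p under 0.05, or by DESeq2 or limma voom. Nhp2, a protein of the RNA-modifying H/ACA particles, rose by 2.47, 0.82, 3.02 and 2.31 log2, in CD31+, CD45+, MSC and MuSC in that order. Of 40 translation factors, 34 rose and 0 fell in CD31+ (1 lower at an unadjusted p under 0.05, and 1 called lower by DESeq2 and by limma voom). The counts were 33 and 2 in MSC, 30 and 2 in MuSC, and 24 and 4 in CD45+. Beside both lists, 18.3% of all genes tested rose and 23.6% fell in MSC, while 21.4% rose and 17.5% fell in MuSC. For CD31+ the shares of all genes were 14.1% and 9.3%, and for CD45+ they were 16.0% and 18.5%. Eif5a, an elongation factor, rose by 1.16, 0.88, 2.12 and 2.15 log2 in the order given for Nhp2. In CD45+ the ribosome production list had a median log2 change of 0.58 and the translation factors 0.47, against -0.17 for the ribosomal proteins.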

How the data were processed

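RNA from sorted mouse cells was primed with oligo(dT), amplified, fragmented with Nextera XT and sequenced as paired reads of 25 bases, per the labels' protocols. The deposited values are whole-number counts per gene symbol, made by the authors with STAR 2.5.4 and featureCounts on mm10, per the submitters' processing notes. The annotation, the strand setting and the treatment of reads with several matches were not given in the sources used here. Totals of 2301202 to 7649841 counts per library limit the precision, and 3 counts correspond to 0.392 to 1.30 CPM of unscaled counts.

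From these counts, edgeR 4.0.16 (R 4.3.3) fitted a quasi-likelihood model with TMM scaling and its default filter on low counts (16263 genes), with 1 mean for each of the 8 groups (16 residual degrees of freedom) and Benjamini-Hochberg adjustment over all genes. Alternatives were DESeq2 1.42.0, limma voom 3.58.1, other scalings, no filter, the replicate number as a block, single populations, each library left out, other pseudocounts in the ratios (0.5 was used), and, chosen after seeing the data, -ps counts added to each gene. In simulated counts for the CD31+ comparison (15631 genes), 29.6% of genes changed by 1 log2 and 80.4% of those changed by 2 log2 were recovered, and 3.60% of calls were unchanged genes. Replicate libraries differed by more than counting error (chi-square per degree of freedom 5.26 to 18.9), so no library was counted as deposited more than once. Where libraries share an animal is not known, so p-values measure the spread between libraries.

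Positions and exon lengths are from GENCODE (GRCm38, the assembly of mm10), where all 88 symbols matched, and start regions are from RefSeq (GRCm38.p6). Members, gene lists and tests were chosen with earlier results of these data known. Genes named in full are the paralogs and partners, the 3 members farthest above and below the members' median in each injury comparison, the 5 with the smallest p for a difference in response, the 3 highest and lowest per kb, the stalk genes and Rpsa, the 2 highest in each uninjured population, and up to 3 genes of a list beside a result, with some genes that the rule names not reported here.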

Additional observations from a re-analysis of the deposited data

Results flagged for a closer look

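The response to injury differed between populations in 80 of the 86 members tested. Among the paralogs and their partners, the adjusted p of edgeR's test of that difference was 4.27e-06 for Rpl3, 0.00655 for Rpl7l1 and 3.70e-06 for Rpl7. It was 0.000477 for Rpl22l1, 1.08e-05 for Rpl22, 2.58e-05 for Rpl36a, 2.03e-05 for Rpl39, 0.00676 for Rps4l, 8.28e-06 for Rps4x and 0.00131 for Rps27. Among the members with the smallest values it was 3.03e-09 for Rpsa, 2.09e-08 for Rplp1 and 5.71e-08 for Rps18.

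Symbols of ribosomal protein pseudogenes that end in -ps were not used in the comparisons. Of 287 such symbols, 251 had at least 1 count, and together they held 17878 counts over the 24 libraries, equal to 0.336% of the counts of the 88 members.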

How the results depend on the processing

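Across the alternatives no paralog ratio reversed. Members that rose in CD31+ numbered 74 to 81 and in MSC 78 to 82 over all alternatives, and those with a different response 78 to 82. With library totals alone, 61 members were called in CD45+ (57 fell), and in MuSC 22 rose and 8 fell. With no filter, 13 were called in CD45+ (10 fell). Shares of all genes called under these settings are not given here. Members that fell in MuSC numbered 2 by RLE scaling, 2 by DESeq2, 3 by limma voom and 1 in the 6 MuSC libraries alone, and in the 6 CD31+ libraries alone 0 members fell. The replicate block gave 81 called in CD31+, 79 in MSC, 44 in MuSC and 22 in CD45+, and for the ratio of Rps4l to Rps4x (0.35) an adjusted p of 0.0815 in place of 0.0401. Replicate numbers were not treated as pairs: deviations of same-numbered libraries correlated at -0.08 to 0.08 between injured and uninjured, -0.01 to 0.07 between uninjured populations and -0.01 to 0.14 between injured ones (3 of 18 over 0.1), and whether they share an animal is not known. Leaving out each library in turn gave 75 to 82 called in CD31+, 16 to 29 in CD45+ (12 to 25 fell, 4 to 7 rose), 78 to 81 in MSC and 30 to 53 in MuSC (27 to 53 rose, 0 to 3 fell), and 0.29 to 0.40 for the ratio of Rps4l to Rps4x. The causes were not tested. Depth limits Rpl3l, Rpl39l, Rpl6l and Rps3a3.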
